A study of Rattus norvegicus with 14 samples.

Results

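The genes described here are 10 genes of T cells and cytotoxic lymphocytes, measured in the skin of male CD hairless rats. They are the CD3 chains Cd3d, Cd3e and Cd3g, the surface receptors Cd2, Cd4 and Cd8a, the kinase Lck, the cytokine receptor chain Il2rb, and the granule proteases Gzma and Gzmb. The 10 were set by name, and each array probe was assigned to a gene through its accession in rat RefSeq. All 10 were found among the 26903 genes or unnamed accessions of the array, and all 10 were among the 18609 that passed the filter on dim probes. The tested animals were 6 rats exposed at 94 GHz for 3 h per day, on 3 days per week, over 5.5 months. The controls were 8 unexposed sham rats. Skin was taken at the end of the exposure, and total RNA of each animal went to 1 one-colour Agilent array. The rats shared cages, and neither their age nor the cage of an animal is given in the sources used here.

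CD3 chains form the signalling part of the T cell receptor. When the receptor binds its peptide, the kinase Lck, held near it by the coreceptors CD4 and CD8, phosphorylates the CD3 chains. Cytotoxic T cells and natural killer (NK) cells kill through granules that hold perforin and granzymes, and they depend on interleukin 15, which signals through the IL2RB chain. Skin holds T cells that stay in the tissue, and the epidermis of rodents holds a population of its own with a dendritic shape. In the rat, CD4 is also found on monocytes and macrophages, and CD8 alpha on NK cells, so neither gene marks T cells alone.

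The 3 CD3 genes were consecutive genes on chromosome 8 in the RefSeq table, in the order Cd3g, Cd3d, Cd3e. Their promoters, from 250 bases before to 50 bases after the start of each gene (RefSeq, GRCr8), are shown because Cd3d and Cd3g moved together across animals, as described further on. They lie at chr8:54183869-54184168 on the minus strand for Cd3g, at chr8:54185269-54185568 on the plus strand for Cd3d and at chr8:54211721-54212020 on the minus strand for Cd3e. Capitals mark matches on either strand to AGGAA, the core of sites for ETS factors, or to CTTTGA, a TCF/LEF motif. No 2 marked matches overlap.
Cd3g: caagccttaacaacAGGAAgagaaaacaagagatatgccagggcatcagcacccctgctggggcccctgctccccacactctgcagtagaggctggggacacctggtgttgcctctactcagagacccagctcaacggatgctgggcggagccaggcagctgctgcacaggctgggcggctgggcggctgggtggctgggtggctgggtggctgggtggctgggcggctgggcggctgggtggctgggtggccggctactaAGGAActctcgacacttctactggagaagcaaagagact
Cd3d: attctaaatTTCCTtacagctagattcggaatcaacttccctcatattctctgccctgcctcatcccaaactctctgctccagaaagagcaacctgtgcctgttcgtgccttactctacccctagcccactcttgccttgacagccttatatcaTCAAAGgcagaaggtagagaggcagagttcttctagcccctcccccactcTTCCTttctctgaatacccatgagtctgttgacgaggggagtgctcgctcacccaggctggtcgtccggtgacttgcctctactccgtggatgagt
Cd3e: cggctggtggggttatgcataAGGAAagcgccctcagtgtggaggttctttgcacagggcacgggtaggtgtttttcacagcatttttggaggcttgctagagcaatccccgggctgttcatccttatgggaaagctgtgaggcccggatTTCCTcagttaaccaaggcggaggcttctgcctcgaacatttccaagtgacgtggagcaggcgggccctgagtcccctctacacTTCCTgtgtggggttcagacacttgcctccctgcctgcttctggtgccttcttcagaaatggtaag
The AGGAA core matched 2 times in the Cd3g promoter, 2 times in the Cd3d promoter and 3 times in the Cd3e promoter. The CTTTGA motif matched 1 time, in the Cd3d promoter. A RUNX motif, spelled TGTGGT, had no match in the 3 promoters. The motif searched for GATA factors, spelled AGATAA, had none either. Among all 33469 promoters of the table, 67.3% held the ETS core, 16.1% the TCF/LEF motif, 17.3% the RUNX motif and 11.6% the GATA motif, so a match to the ETS core is common. Of the 10 genes, 8 had a promoter in the table.

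Values are log2 of the processed spot signal minus the log2 75th percentile of that signal on the same array, so 0 stands for a signal at the array's 75th percentile. They compare animals within a gene, not genes with each other, since probes differ in how brightly they label. The 75th percentile was 1500 ± 314 scanner units in exposed and 1510 ± 342 in sham animals (SD, n = 6 and 8). It was lowest, at 804.5, in sham animal 6. Keratin genes Krt5, Krt14 and Krt1 and collagen genes Col1a1 and Col1a2 were well above background on all 14 arrays, as the label of skin requires. The arrays lay on 4 slides, with 2 exposed arrays on slide 2, 2 sham arrays on slide 1, an even 3 against 3 on slide 3, and 1 exposed beside 3 sham arrays on slide 4. The whole biopsy was measured, so fewer cells of a type and less RNA per cell cannot be told apart.

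Cd3d was well above background on every array, with 10 spots on each. In exposed animals its value was -1.47 at the lowest, -1.13 at the median and -0.97 at the highest, against -1.67, -1.05 and -0.31 in sham animals. The highest value belonged to sham animal 6 and the lowest to sham animal 3, so all 6 exposed animals lay inside the range of the sham animals. Cd3g, on the same number of spots, ran from -1.97 through a median of -1.56 to -1.25 in exposed animals, against -2.25, -1.48 and -0.78 in sham animals. Again the sham animals held both extremes. Cd3e, the chain whose tail carries a proline-rich stretch besides its signalling motif, ran from -4.70 through -4.57 to -4.15 in exposed animals, against -5.00, -4.59 and -3.79 in sham animals. The exposed SD was 0.18 for Cd3d, 0.24 for Cd3e and 0.24 for Cd3g, against 0.43, 0.45 and 0.51 in sham animals (n = 6 and 8); the difference in spread was not tested. Repeat spots show the noise of a spot, not that of labelling, hybridization or scaling, which spots of an array share. The SD between animals within groups was 17.8 times the standard error of an array's mean over spots for Cd3d, 14.2 times for Cd3g and 3.53 times for Cd3e.

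Cd2, an adhesion receptor of T and NK cells, was well above background on all 14 arrays. Its value ran from -4.47 through a median of -3.99 to -3.72 in exposed animals, against -4.48, -3.97 and -3.69 in sham animals. The groups covered nearly the same range, and the span over all animals, 1.72-fold, was the narrowest of the 10 genes. Lck ran from -5.99 through -5.17 to -4.82 in exposed animals, against -5.59, -5.18 and -4.86 in sham animals, and passed the background check on 5 of the 6 exposed arrays and on all 8 sham arrays. Exposed animal 3 was the lowest, and the medians of the groups nearly coincided.

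Cd4, the coreceptor for MHC class II, varied more, over 4.17-fold. Its values were -4.56, -5.25, -5.37, -4.49, -4.27 and -4.15 in exposed animals 1 to 6, against -3.73, -3.91, -4.06, -4.21, -4.90, -5.71, -4.14 and -3.65 in sham animals 1 to 8. All 6 exposed animals lay below the sham median of -4.10, but the lowest value of all belonged to sham animal 6. The signal cleared background on 6 exposed arrays and on 7 of the 8 sham arrays. Cd8a, the coreceptor for MHC class I, was dim, with a median of 20.7 scanner units, and cleared background on 3 of the 6 exposed arrays and 5 of the 8 sham arrays. It ran from -7.67 through -6.27 to -4.90 in exposed animals, against -7.06, -6.16 and -5.60 in sham animals. Both extremes were exposed animals of slide 3, exposed animals 3 and 4. Its repeat spots had an SD of 0.47 within an array, and the SD between animals was 2.17 times the standard error of an array's mean.

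Il2rb, the chain shared by the receptors of interleukins 2 and 15, was well above background on all 14 arrays. It ran from -4.99 through -4.73 to -3.95 in exposed animals, against -4.95, -4.49 and -4.28 in sham animals. Exposed animal 1 stood highest, and 5 of 6 exposed animals lay below the sham median. Gzmb, a granule protease that cuts after aspartate, had values of -4.47, -6.13, -5.84, -5.33, -6.93 and -5.51 in exposed animals 1 to 6. In sham animals it ran from -6.08 through -5.59 to -4.93. Exposed animal 1 was again the highest and exposed animal 5 the lowest, so here the exposed animals held both extremes. It cleared background on 4 of the 6 exposed arrays and on all 8 sham arrays. A second Gzmb probe, well above background on 8 arrays, followed it at r = 0.69 over the 14 animals.

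Gzma, a granule protease of the tryptase type, ran from -5.77 through -5.21 to -4.60 in exposed animals, against -5.70, -5.34 and -4.26 in sham animals. These scaled values followed the brightness of the array. The spot signal itself was between 30.4 and 52.2 scanner units on all arrays, a 1.72-fold range, while the scaled values spanned 2.84-fold. Scaling subtracts the log2 75th percentile, so a nearly constant signal gives a negative r with that percentile by construction. The permutation p-values that follow do not allow for this shared term. Before scaling, the log2 signal of Gzma had an r of -0.40 with the log2 75th percentile. Over the 14 animals the scaled value correlated with the log2 75th percentile at Pearson r = -0.92 (Spearman -0.89; permutation p = 1e-05, the smallest that 100000 resamples can give, and 1e-04 after Benjamini-Hochberg adjustment over 10 genes). Without the 2 animals farthest from the median array signal r was -0.84, within slide 3 it was -0.95, and 1.5% of all genes had an r at or below that of Gzma. Cd4 ran the other way, at r = 0.73 (Spearman 0.61, permutation p = 0.0029, adjusted p = 0.0145), but without the 2 farthest animals r was 0.32. The Spearman correlation of Cd4 had an adjusted permutation p of 0.121, and 93.8% of all genes had an r at or below that of Cd4. For the other 8 genes the adjusted p was 0.208 or more. The part of array brightness in the values of Gzma and Cd4 beyond these correlations was not tested.

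**Figure D1:**
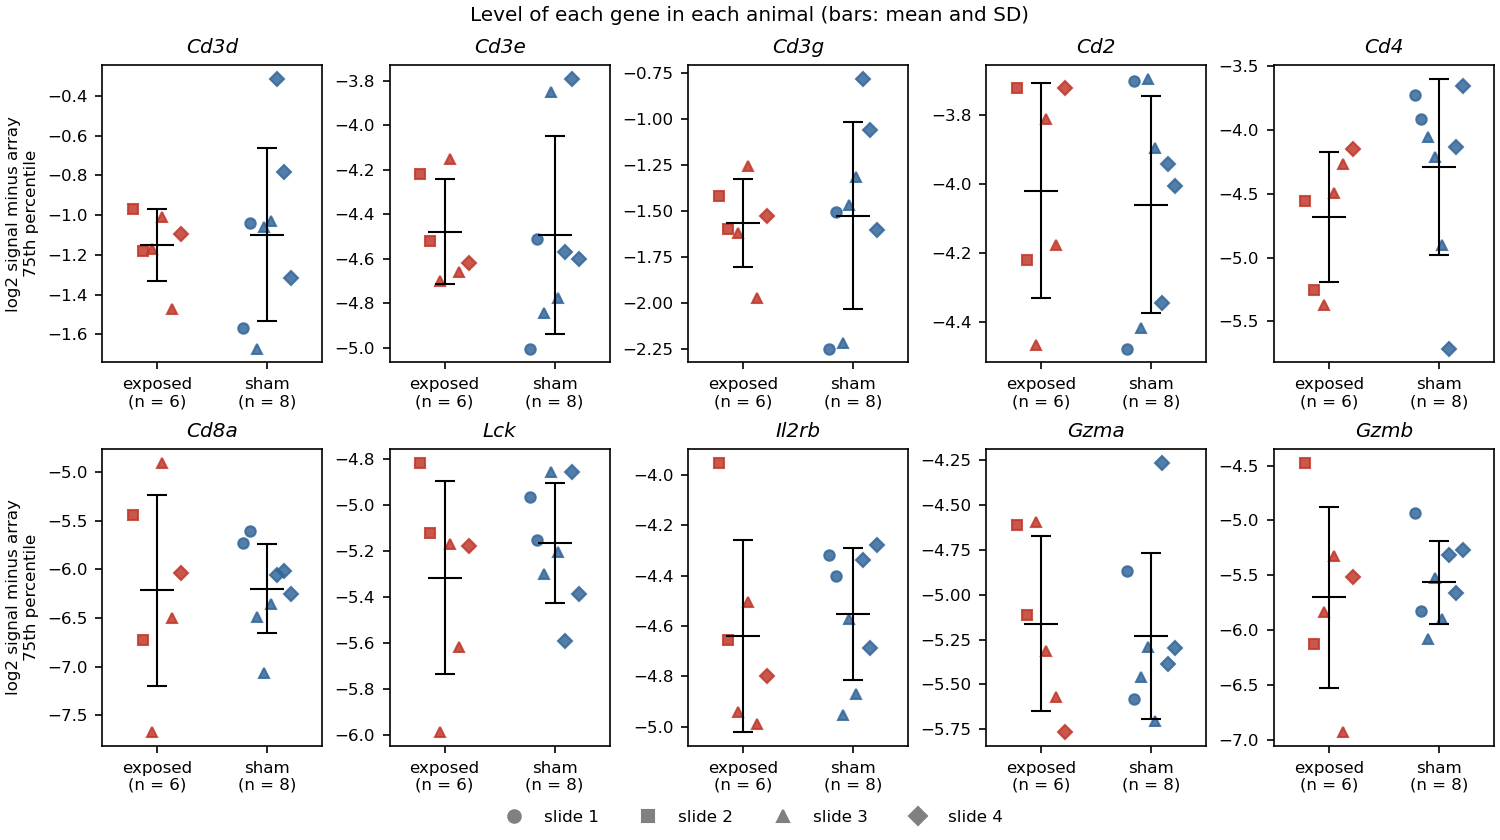
Level of each of the 10 genes in every animal, as log2 signal relative to the array's 75th percentile, with exposed animals left of sham animals; points are animals, their shape gives the slide, and bars are the mean and SD. The groups overlap for all 10 genes, all 6 exposed animals lie below the sham median of -4.10 for Cd4, and exposed animals hold the highest and the lowest value for Cd8a, Lck, Il2rb and Gzmb.

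The comparison of exposed with sham animals asked whether chronic exposure changed the expression of these genes in skin. No difference passed the test: limma with Benjamini-Hochberg adjustment called 0 of 10 at an adjusted p under 0.05, and 0% of all 18609 genes. At an unadjusted p under 0.05 it took 0 of 10, against 3.42% of all genes. The adjusted p of each gene was 0.99959. No gene of the 10 had groups that did not overlap, against 0.0322% of all genes. Of the 10, 7 had a lower mean in exposed animals, against 57% of all genes, with a median difference of -0.05 on the log2 scale, against -0.02 over all genes. That count moved between 3 without exposed animal 5 and 10 without exposed animal 1, was 5 without sham animal 6, and was 2 when limma weighted the arrays by their quality, so no direction can be read from it.

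The largest of the 10 differences was that of Cd4, at -0.39 ± 0.31 (SE; 95% interval -1.06 to 0.27), from means of -4.68 ± 0.51 in exposed and -4.29 ± 0.69 in sham animals (SD, n = 6 and 8). The exact permutation test, two-sided and over all 3003 splits of the animals, gave p = 0.262. The interval leaves room for levels in exposed skin between 0.48 and 1.21 times those in sham skin. Without sham animal 6 the Cd4 difference was -0.60, with a limma p of 0.0253 before adjustment and 0.556 after it. With weighted arrays it was -0.49 (adjusted p = 0.354), and within slide 4 it was 0.35. With slide as a block it was -0.10 (95% interval -0.96 to 0.77). Lck averaged -5.32 ± 0.42 in exposed and -5.17 ± 0.26 in sham animals, a difference of -0.15 ± 0.17 (SE), and of -0.28 with slide as a block. Gzmb averaged -5.70 ± 0.82 in exposed and -5.56 ± 0.38 in sham animals, a difference of -0.14 ± 0.30, and its second probe differed by -0.07.

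The CD3 chains had nearly equal means in the groups. Cd3d differed by -0.05 ± 0.18 (95% interval -0.44 to 0.33), Cd3g by -0.04 ± 0.21 (-0.49 to 0.41) and Cd3e by 0.01 ± 0.19 (-0.39 to 0.42). For Cd3d this bounds the level in exposed skin to between 0.74 and 1.26 times that in sham skin. Cd2 differed by 0.04 ± 0.16 (-0.30 to 0.39) and Il2rb by -0.09 ± 0.16 (-0.44 to 0.26). Gzma, whose unscaled signal was nearly constant between arrays, differed by 0.07 ± 0.24 (-0.44 to 0.58). Cd8a differed by -0.02 ± 0.36, and its interval, -0.79 to 0.76, was the widest of the 10 and allowed levels between 0.58 and 1.69 times the sham level. The smallest exact p among these genes was that of Cd4, and the others lay between 0.424 and 0.969.

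**Figure D2:**
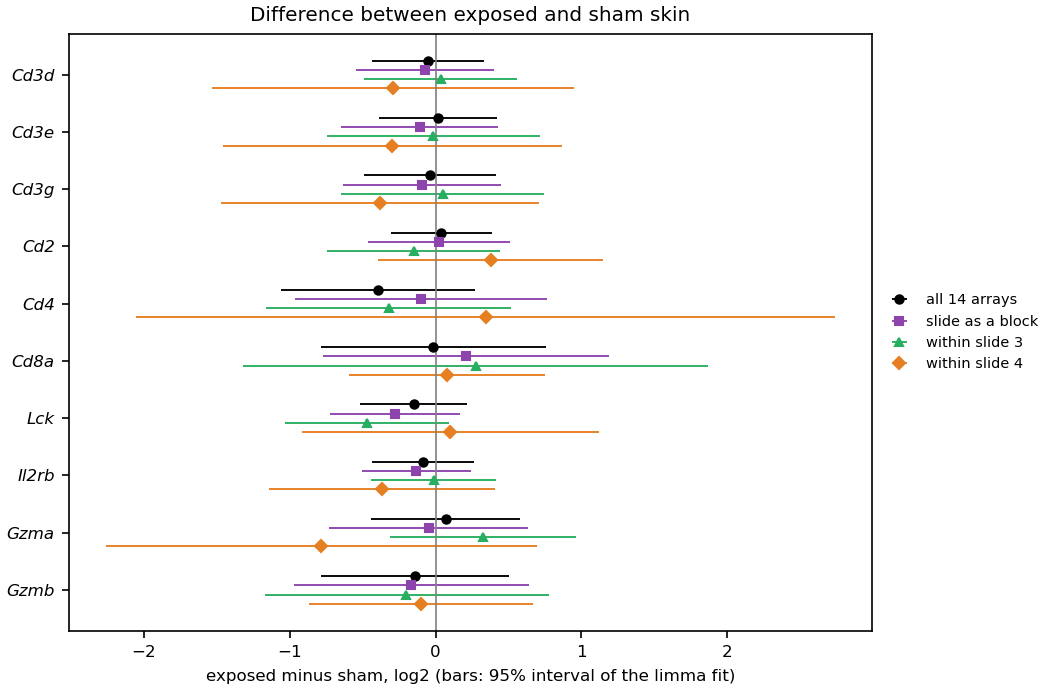
Exposed minus sham difference of each gene on the log2 scale, with bars for the 95% interval from limma, for all 14 arrays, for slides 3 and 4 each alone, and for a fit that blocks by slide. Every interval drawn includes 0; over all 14 arrays Cd4 has the largest difference, -0.39, and the interval of Cd8a runs from -0.79 to 0.76.

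On slide 3, where 3 exposed and 3 sham arrays lay side by side, the mean of Cd3d was -1.22 in exposed and -1.25 in sham animals, and that of Cd3g was -1.62 in exposed and -1.67 in sham animals. Cd4 averaged -4.71 in exposed and -4.39 in sham animals of that slide, and Lck -5.59 in exposed and -5.12 in sham animals. Slides 1 and 2 each held 1 group, so nothing can be compared within them.

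Across the 14 animals, the genes did not form 1 block. Of the 45 pairs among the 10 genes, 38 correlated positively, with a median Pearson r of 0.30. These values were not set beside those of pairs of other genes, which share the same arrays. For 2 pairs the adjusted permutation p was under 0.05. The first was Cd3d with Cd3g, at r = 0.96 (Spearman 0.96; permutation p = 1e-05, the smallest possible, adjusted over 45 pairs p = 0.00045). Their r was 0.96 without the 2 animals farthest from the median Cd3d value, sham animals 3 and 6, and 0.99 within slide 3. With the means of group and slide removed it was 0.96. The neighbouring gene Cd3e followed them less closely, at r = 0.49 with Cd3d (Spearman 0.67; permutation p = 0.0767, adjusted p = 0.238) and 0.58 with Cd3g (Spearman 0.69; permutation p = 0.0294, adjusted p = 0.205), values that did not pass. Without sham animal 6, an alternative chosen after the data were seen, those were 0.74 and 0.73.

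The second pair was Il2rb with Gzmb, at r = 0.83 (Spearman 0.85; permutation p = 0.00023, adjusted p = 0.00517). Exposed animals 1 and 5, at opposite ends of both genes, were the farthest from the median; without them r was 0.71. It was 0.79 within slide 3 and 0.79 with group and slide removed. Gzmb and Gzma, proteases of the same granules, correlated at 0.49 (Spearman 0.42; permutation p = 0.077, adjusted p = 0.238), where the Gzma values are those that followed array brightness. Lck correlated with Cd2 at 0.56 (Spearman 0.45; permutation p = 0.0365, adjusted p = 0.205), with no pass. Cd4 correlated at -0.57 with Cd3d (Spearman -0.45; permutation p = 0.0348, adjusted p = 0.205), which did not pass, and at 0.04 with Cd3e (Spearman -0.09; permutation p = 0.905, adjusted p = 0.926). The value with Cd3d was weaker without some animals: it was -0.24 without sham animals 3 and 6, and -0.29 without sham animal 6 alone. It was -0.49 within slide 3 and -0.69 with the means of group and slide removed (adjusted permutation p = 0.0852). The count of pairs past the threshold was 6 without sham animal 6. Under normexp, an alternative background correction, it was 21, while the r of Cd3e, Cd8a, Lck, Il2rb, Gzma and Gzmb with array signal lay between -0.66 and -0.98 under that correction.

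**Figure D3:**
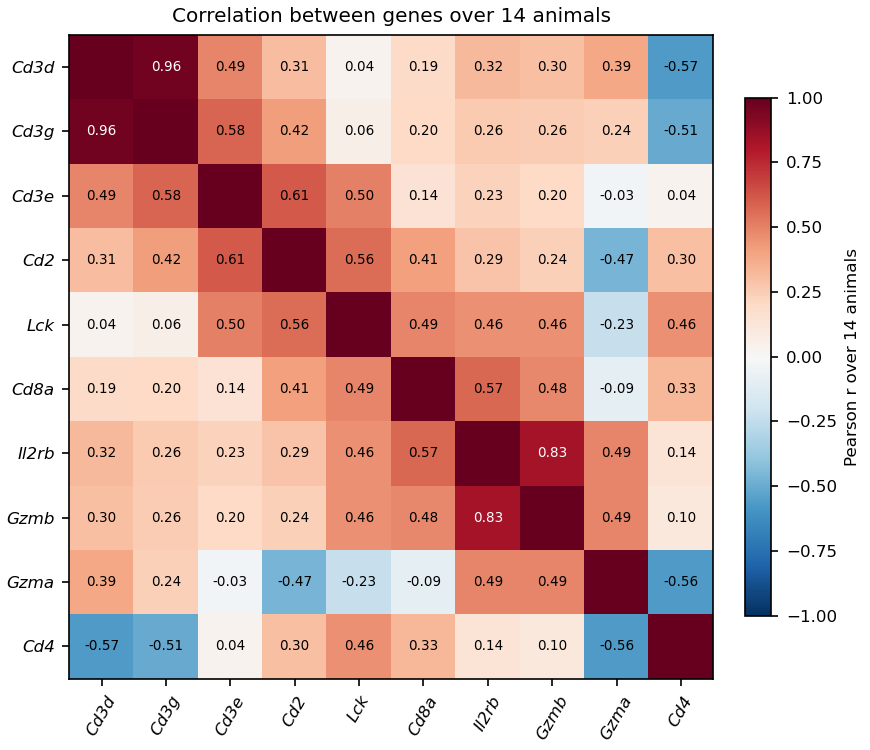
Pearson r over the 14 animals for each pair of the 10 genes, with colour from negative (blue) to positive (red). The pair Cd3d and Cd3g, at 0.96, and the pair Il2rb and Gzmb, at 0.83, are the only ones past an adjusted permutation p of 0.05 of the 45.

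**Figure D4:**
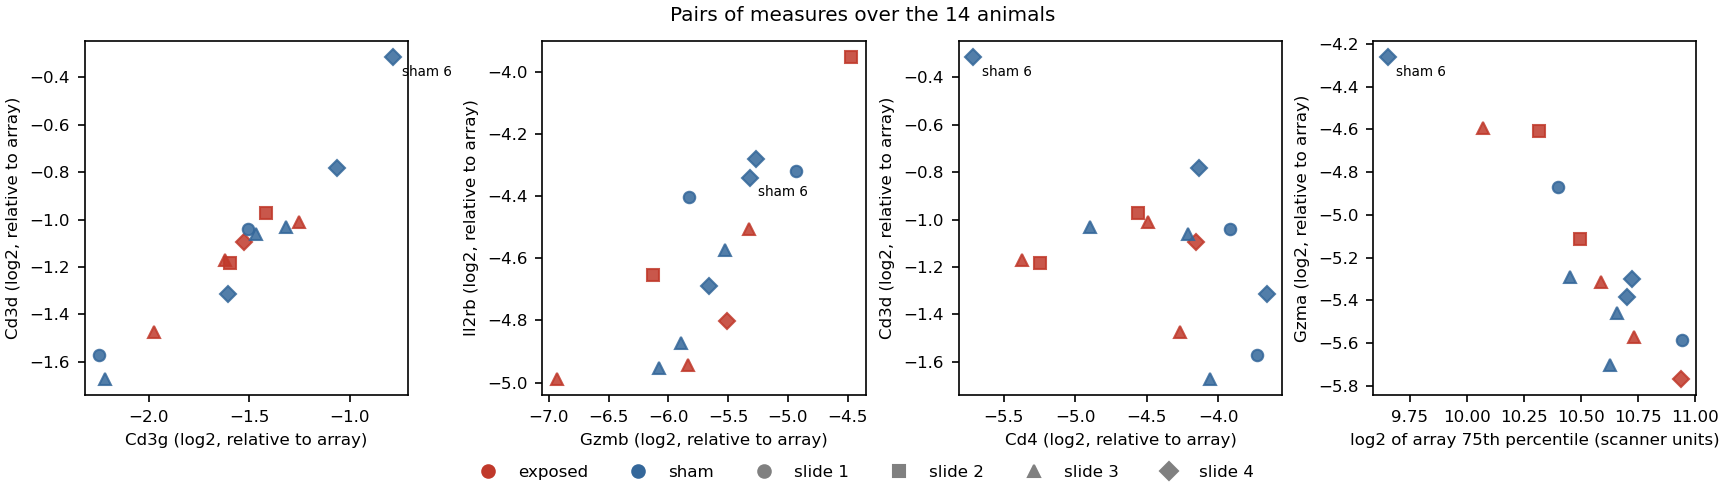
Values of 4 relations in the 14 animals, 1 point each, with colour for the group and shape for the slide. Cd3g follows Cd3d (r = 0.96) and Gzmb follows Il2rb (r = 0.83) in both groups. Cd4 against Cd3d (r = -0.57) weakens to -0.29 without sham animal 6. Gzma falls as the log2 75th percentile of the array, which is subtracted in its scaled value, rises (r = -0.92).

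The genes whose levels were most like the mean of the 6 genes seen on every array, by Pearson r over the 14 animals, are given as a description, since 11314 named genes were ranked and all share the same arrays. The mean includes Gzma, whose values followed array brightness. They were led by Ptprcap, a protein bound to the CD45 phosphatase, at 0.86, and also included the cytokine gene Ltb at 0.82, the transcription factor Batf at 0.81, the leukocyte GTPase Rac2 and the chemokine Ccl19 at 0.80 each. Rinl (0.83), Znf846 (0.82, well above background on 9 arrays), Snx20 (0.82), Cyba, a subunit of the NADPH oxidase (0.82), and Ube2b, a ubiquitin-conjugating enzyme (0.79), made up the rest of the 10. Without the 2 animals farthest from the median of that mean, r lay between 0.63 for Ube2b and 0.79 for Ptprcap. The lowest of the 10 was 0.66 under normexp, for Ccl19, and 0.63 after quantile normalization, for Cyba.

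The lists of single genes were drawn up after the values were seen. Cd3d and Cd3g were most like each other, and both were like Ptprcap (0.93 and 0.92), Cd6, a receptor of T cells (0.92 and 0.92), and Sit1, an adaptor of T cell signalling (0.91 and 0.94). Cd3e was most like Icos, a costimulatory receptor of T cells (0.78). Cd2 was most like Slc38a9, a lysosomal amino acid transporter (0.84), and Cd8a like P2ry13, a nucleotide receptor (0.89). The genes most like Cd4 included Csf1r, the receptor for macrophage growth factor (0.93), and Lgmn, a lysosomal protease (0.93). The r of Cd4 with Csf1r was 0.93 without the 2 farthest animals and 0.83 with array signal removed, but 0.58 under normexp. The genes most like Il2rb included Ly49si1, of the Ly49 family of NK cell receptors (0.83), and Cxcr3, a receptor of activated T and NK cells (0.80). Gzmb was most like Grxcr2 (0.85), which was well above background on 6 arrays. Its list also held Arhgap9 (0.83) and the macrophage gene Cd68 (0.83, but 0.60 under normexp). Lck was most like Il21r, a cytokine receptor (0.87). The top genes of Gzma included Fabp5, a fatty acid binding protein, at 0.95, whose r was -0.56 after quantile normalization.

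Further genes of the same pathways were taken from lists. Counts of lower genes in the lists stand beside the 57% of all genes that were lower in exposed animals. Of 25 genes of the T cell receptor complex and its signalling, 14 were kept; 0 were called, 10 were lower and 4 higher in exposed animals (6 lower with weighted arrays), and the median difference was -0.08. Lcp2, an adaptor that links the receptor to its effectors, differed by -0.17 ± 0.14 (SE), with a median of -3.96 in exposed and -3.79 in sham animals. Ptprcap differed by -0.16 ± 0.15, Ptprc, which encodes the CD45 phosphatase, by -0.11 ± 0.14 and the phospholipase gene Plcg1 by -0.06 ± 0.10. Of 26 costimulatory, checkpoint and lineage genes, 15 were kept, 0 were called and 11 were lower (6 within slide 4, 7 with weighted arrays). Foxp3, the factor of regulatory T cells, averaged -5.14 ± 0.32 in exposed and -4.79 ± 0.33 in sham animals (SD), a difference of -0.35 ± 0.17 (SE; limma adjusted p = 0.99959). Lef1, a factor of T cells and of hair follicle cells, averaged -3.15 ± 0.68 in exposed and -3.98 ± 0.91 in sham animals, a difference of 0.82 ± 0.41 (limma adjusted p = 0.99959). Gata3 differed by 0.04 ± 0.20 and Tbx21 by -0.09 ± 0.22. Over all animals Gata3 averaged 0.38 and Tbx21 5.05, each on 1 kept probe. Which cells gave these signals, and whether each probe reports its gene alone, was not tested. Of 9 kept hair follicle markers, 8 were higher in exposed animals, with 0 called and a median difference of 0.75, which was 0.49 without sham animal 1 and 1.28 with slide as a block. The part of hair follicle tissue in the Lef1 values was not tested.

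Of 30 genes of cytotoxic granules and NK cells, 17 were kept and 0 were called. As many as 16 were lower in exposed animals, against 57% of all genes, but the median difference was only -0.09. That count was 11 without exposed animal 5, 12 without sham animal 6, 12 within slide 3 and 10 with weighted arrays. Prf1, the pore-forming protein of the granules, ran from -5.75 through -5.51 to -5.29 in exposed animals, against -5.55, -5.11 and -4.40 in sham animals. Its difference was -0.48 ± 0.18 (SE; limma adjusted p = 0.99959), and it was the 1 gene of the list under an unadjusted p of 0.05, against 3.42% of all genes. Fcgr3a, an antibody receptor of NK cells and macrophages, differed by -0.45 ± 0.23, Tyrobp, an adaptor of NK and myeloid receptors, by -0.07 ± 0.19, and Lamp1, of lysosomes in general, by -0.03 ± 0.11. The NK cell receptor genes of the list were unevenly detected. Klrk1 and Klrb1a were well above background on 14 arrays, as were the granule genes Gzmm and Nkg7, while Klrd1 was on 3. Ncr1, Ncr3, Klrg1, Klrc1 and Klrb1, the protease Gzmk and the cytokine Ifng were well above background on 0 arrays.

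Of 18 genes of interleukin 2 and 15 signalling, 15 were kept, 0 were called and 9 were lower, against 57% of all genes. That count was 7 without exposed animal 5 and 12 with slide as a block. Stat3, a factor used by many cytokines, averaged 1.08 ± 0.24 in exposed and 1.39 ± 0.15 in sham animals, a difference of -0.31 ± 0.10 (SE; limma adjusted p = 0.99959). Socs1, an inhibitor of cytokine signalling, differed by -0.28 ± 0.22 (-0.07 without exposed animal 3) and Il2rg, the partner chain of Il2rb, by -0.07 ± 0.16. Of 32 genes of skin homing, residence and attracting chemokines, 26 were kept, 0 were called and 16 were lower, again against 57% of all genes. The count of lower genes was 13 without exposed animal 3 or without exposed animal 5, and 20 with slide as a block. Cxcr6, a receptor of tissue-resident T cells, differed by 0.22 ± 0.16, and its ligand Cxcl16 by -0.06 ± 0.08. Sele, the endothelial selectin that lets T cells enter skin, differed by 0.41 ± 0.34, and by 0.09 without exposed animal 1. Ccl27, the chemokine that keratinocytes make, differed by -0.14 ± 0.20.

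**Figure D5:**
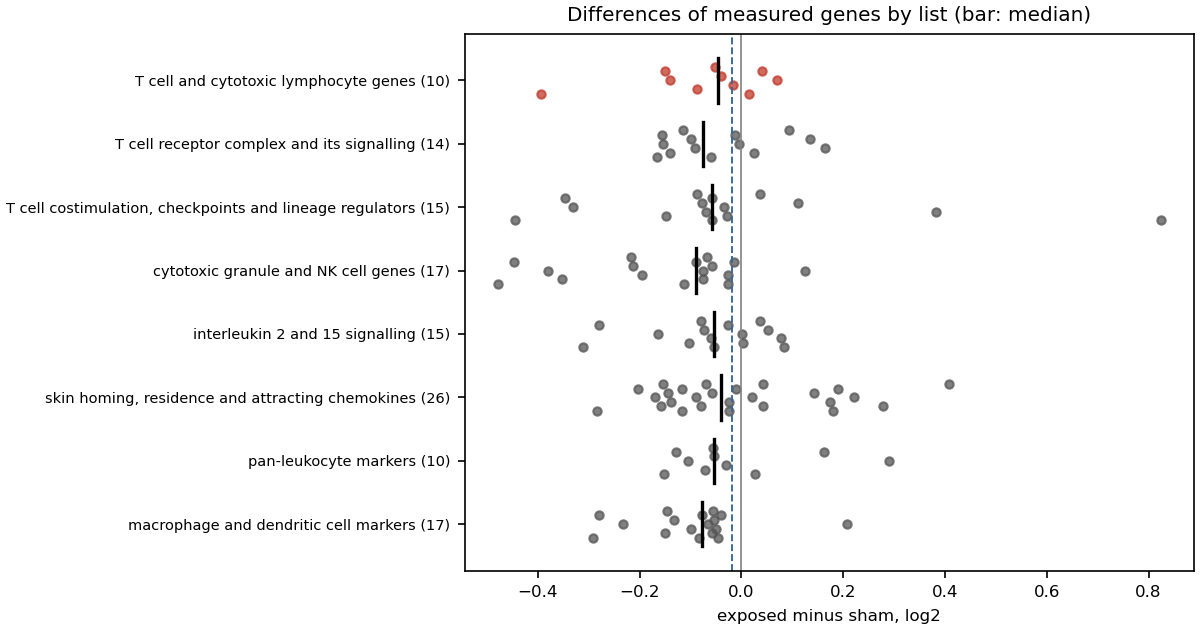
Exposed minus sham difference on the log2 scale of each kept gene of the lists, 1 point a gene, with the list's median as a short bar and the median over all kept genes as a dashed line at -0.02. The 10 genes are in the top row, and median differences of the 5 pathway lists under them lie between -0.09 and -0.04, with 0 genes called in any list.

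Markers of other cells were measured beside these genes. Of 12 pan-leukocyte markers, 10 were kept and 7 were lower in exposed animals (4 within slide 4, with weighted arrays or without exposed animal 3), with list scores, the mean of gene-centred log2 values, of -0.30 to 0.38 in exposed and -0.20 to 0.23 in sham animals. Of 22 macrophage and dendritic cell markers, 17 were kept and 16 were lower (7 within slide 4 and with weighted arrays, 9 without exposed animal 2, 6 without exposed animal 3), with scores of -0.66 to 0.47 in exposed and -0.12 to 0.26 in sham animals. The skeletal muscle markers varied most: 9 of 9 kept genes were higher in exposed animals by a median of 1.45, 0 were called, and the scores ran from -2.01 to 4.98 in exposed and from -2.92 to 3.72 in sham animals. That median was 0.60 without exposed animal 2, 0.52 with slide as a block, and -0.18 within slide 3, where 3 of the 9 were higher. Of 80 relations between the 10 genes and 8 marker scores, 0 passed an adjusted permutation p of 0.05. The highest r was that of Cd8a with the fibroblast score, at 0.76 (Spearman 0.52; permutation p = 0.0018, adjusted p = 0.0764), or 0.41 without the 2 farthest animals. Cd8a had an r of 0.74 with the macrophage and dendritic cell score (Spearman 0.69, permutation p = 0.00309, adjusted p = 0.0764), or 0.49 without the 2 farthest animals. With the pan-leukocyte score the r of Cd8a was 0.72 (Spearman 0.70, permutation p = 0.0038, adjusted p = 0.0764), or 0.56 without the 2 farthest animals. Il2rb had an r of 0.72 with the pan-leukocyte score (Spearman 0.57; permutation p = 0.00382, adjusted p = 0.0764), or 0.50 without them. Cd4 had an r of 0.52 with the macrophage and dendritic cell score (Spearman 0.53; permutation p = 0.0552, adjusted p = 0.401), or 0.08 without them. Gzmb had an r of 0.50 with the macrophage and dendritic cell score (Spearman 0.64, permutation p = 0.0719, adjusted p = 0.408). That r was 0.59 without the 2 farthest animals and -0.15 within slide 3. The part of these cell types in the members' values was not tested.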

How the data were processed

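Total RNA of skin from 14 rats, 6 exposed and 8 sham, was labelled with Cy3, per the labels' protocols, and read on 1 array per animal. Groups come from the treatment in the labels, and animals were numbered only to name them. The 10 genes and all gene lists were chosen with earlier results of these data known. Cages were shared but are not known by animal, so p-values treat animals as independent.

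The deposited scanner data are linear spot intensity values from Agilent Feature Extraction 10.7.3.1, per the file headers, which subtracts background. In the authors' deposited table, 15168 probes have log2 values, each centred on the probe's median. Its scale and direction were settled against the scanner values, its column medians lay between -0.00856 and 0.0119, and the sources used here do not give its normalization by the authors. It was used as an alternative and held 2 of the genes' probes.

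Of 62976 spots per array, 4259 control spots and 398 to 601 flagged spots were left out. The log2 processed signal minus the array's 75th percentile was averaged over the spots of a probe. A probe was kept when well above background on at least 6 arrays (21012 of 30367), and the brightest kept probe stood for a gene. Accessions gave a symbol to 17998 probes (59.3%) through a RefSeq table of GRCr8, whose coordinates are given only for promoters. The comparison of groups used lmFit and eBayes of limma 3.58.1 (R 4.3.3) with a term for group, two-sided p-values and Benjamini-Hochberg adjustment over 18609 genes, and intervals are 95% limma intervals. Correlations used 100000 permutations. The fit was tested on the real arrays, with group means removed and known changes added to some genes. The size of change that it could call is not given here. The number of arrays limits the precision.

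Genes named were the 10, the 2 kept genes of smallest unadjusted p and the 2 of highest mean level of 5 pathway lists, and the 10 most like the mean of the genes seen on all arrays. Other genes were named after their values were seen. Alternatives covered background correction (normexp on median signals, offset 50), normalization, the filter, flagged spots, how probes of a gene were combined, array weights, slide, the variance model and leaving out each animal. The likeness lists of single genes and 2 alternatives for correlations were added after the data were seen. Some genes are not reported here.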

Additional observations from a re-analysis of the deposited data

How the results depend on the processing

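No paired analysis was possible because the labels carry no replicate numbers that pair exposed with sham animals. limma called 0 genes under every alternative, with 294 (within slide 4) to 2366 genes (weighted arrays) at an unadjusted p under 0.05, against 636 as reported. The arrays weighted least were sham animal 6 (0.127) and exposed animal 3 (0.401).

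The differences of the 10 genes were small, and many turned direction. With normexp, Cd3e was -0.0194 and Cd8a 0.0316. With slide as a block, Cd3e was -0.108, Cd8a 0.211 and Gzma -0.0454. Within slide 3, Cd3d was 0.0356, Cd3e -0.0139, Cd3g 0.05, Cd2 -0.149, Cd8a 0.278, Tbx21 0.041, Gata3 -0.133, Fcgr3a 0.148 and Il2rg 0.0395. Within slide 4, Cd3e was -0.297, Cd4 0.348, Cd8a 0.0768, Lck 0.1, Gzma -0.786, Lcp2 0.0291, Plcg1 0.0797, Foxp3 0.00698 and Lamp1 0.126. With weighted arrays, Cd3d was 0.0804, Cd3g 0.109, Cd8a 0.398, Il2rb 0.045, Gzmb 0.0976, Tbx21 0.0791, Gata3 -0.0624, Tyrobp 0.156, Il2rg 0.0326 and Ccl27 0.00877. The cause was not tested.

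Leaving out each animal in turn gave ranges of -0.135 to 0.0592 for Cd3d, -0.058 to 0.115 for Cd3e, -0.143 to 0.066 for Cd3g, -0.0198 to 0.13 for Cd2, -0.278 to 0.276 for Cd8a, -0.0431 to 0.209 for Gzma and -0.385 to 0.106 for Gzmb. Cd4 (-0.596 to -0.255), Lck (-0.25 to -0.016) and Il2rb (-0.225 to -0.0179) kept their direction there. The ranges were -0.172 to 0.0603 for Tbx21, -0.121 to 0.129 for Gata3, -0.185 to 0.0501 for Tyrobp, -0.107 to 0.0243 for Lamp1, -0.133 to 0.0116 for Il2rg and -0.213 to 0.0101 for Ccl27. With no turn of direction, they were 0.094 to 0.609 for Sele, -0.383 to -0.0743 for Socs1 and -0.241 to -0.0746 for Lcp2. The same held for Ptprcap (-0.216 to -0.0724), Ptprc (-0.204 to -0.0307), Plcg1 (-0.117 to -0.0213) and Cxcl16 (-0.0911 to -0.0202). It also held for Foxp3 (-0.413 to -0.262), Lef1 (0.576 to 1.06) and Prf1 (-0.554 to -0.39). Fcgr3a (-0.534 to -0.295), Stat3 (-0.393 to -0.265) and Cxcr6 (0.158 to 0.295) did not turn either. No gene was called in any of these fits.

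Of the 45 correlations, 2 passed as reported, 21 with normexp, 4 with the line on array signal removed and 6 without sham animal 6. The offset of normexp shrinks the differences of dim spots by construction.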

Other observations

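Other immune cells that skin can hold were measured on the same arrays. Of 11 B cell and plasma cell markers, 4 were kept, and Cd22, Mzb1 and Tnfrsf17 were well above background on 0 arrays. Of 14 mast cell markers, 12 were kept, of which 7 were higher and 5 lower in exposed animals, with 0 called by limma and 0 under an unadjusted p of 0.05. With exposed animal 1 left out, 11 were lower; leaving out exposed animal 5 or sham animal 6, or taking slide 4 alone, gave 9. Fcer1a, a chain of the receptor for immunoglobulin E, averaged -2.39 ± 1.05 in exposed and -2.97 ± 0.66 in sham animals (SD, n = 6 and 8), and Kit, the receptor for stem cell factor, -2.97 ± 0.34 in exposed and -2.98 ± 0.29 in sham animals. The mast cell protease genes Tpsb2, Cma1, Mcpt1 and Tpsab1 differed by -0.39, -0.34, -0.23 and -0.22. The protease genes Cpa3 (0.07) and Mcpt9 (0.14, well above background on 7 arrays) went the other way. Among costimulatory and checkpoint genes of T cells, Icos and Havcr2 were well above background on 14 arrays and Lag3 on 11, while Cd28 and Cd40lg were well above background on 0 arrays, Ctla4 on 1 and Pdcd1 on 5.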
